A study of Arabidopsis thaliana with 12 samples.

Results

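Of 22746 Arabidopsis probe sets, 36 met a rule for transcripts whose level changed in seedlings carrying both a phytochrome B and a brassinosteroid receptor mutation while staying near the wild-type level in either single mutant. A probe set was a member when its mean in *phyB-77 bri1-5* lay at least 0.8 log2 units above or below the Ws-2 mean, the mean of either single mutant lay within 0.3 log2 units of Ws-2, and the highest genotype mean was at least 6. The members were 19 probe sets higher in the double mutant and 17 that were lower. The 4 genotype means chose them, so their values below are a description and carry no test.

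The RNA came from whole seedlings grown for 7 days on MS agar under continuous red light, an age the labels and the methods give while a figure legend gives 5 days. It was hybridised to Affymetrix ATH1 arrays, 3 per genotype and 12 in all. The genotypes were the double mutant *phyB-77 bri1-5*, *phyB-77* (also named *gul2-1*, an EMS allele with a premature stop in PHYB), *bri1-5* (a weak allele of the receptor gene BRI1) and Ws-2, the wild type in whose background the mutants were compared. The labels call the 3 arrays of a genotype biological replicates without saying how the seedlings were kept apart, so every p-value below measures only the spread among these arrays, and 3 arrays a genotype limit the precision of each mean.

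Phytochrome B is the main red-light photoreceptor of green seedlings, and in red light it restrains elongation of the hypocotyl. BRI1 is the plasma membrane receptor kinase that binds brassinosteroids, the steroid hormones that drive cell elongation. Several members belong to families known for fast and short-lived transcription after touch, wounding, cold or oxidative stress, such as C2H2 zinc finger, ERF and WRKY regulators. In whole seedlings, fewer cells of a type and less RNA per cell cannot be told apart.

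The rule kept few of the transcripts that differed in the double mutant. In all, 909 probe sets lay at least 0.8 from Ws-2 in *phyB-77 bri1-5*, of which 522 were higher and 387 lower. With the limit on *phyB-77* alone 174 remained, with the limit on *bri1-5* alone 325, with both limits 55, and with the minimum level 36, or 3.96% of the 909. Across all probe sets the median difference from Ws-2 was -0.02 in *phyB-77 bri1-5*, 0.01 in *phyB-77* and 0.01 in *bri1-5*.

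**Figure D1:**
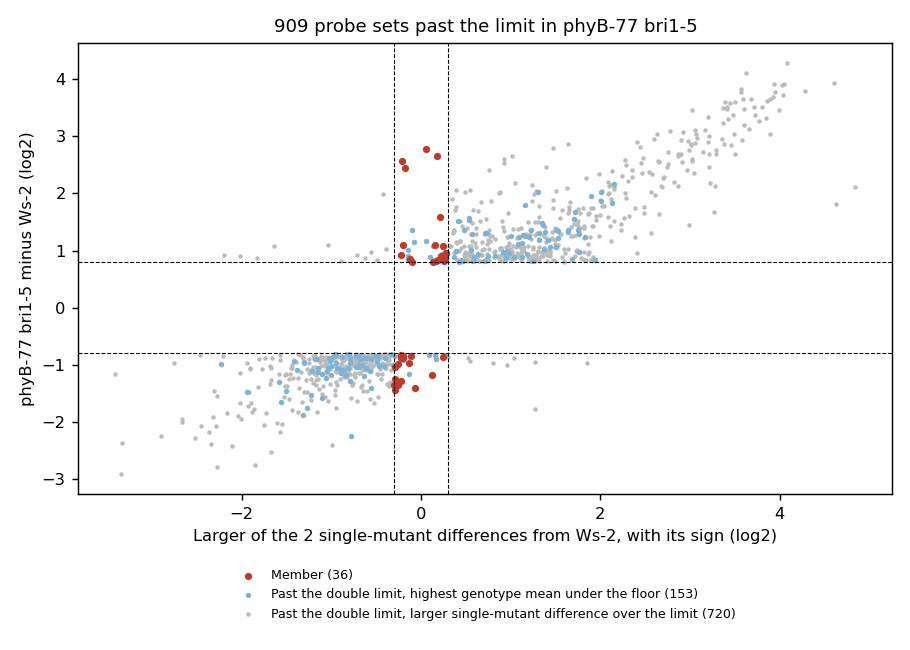
Each point is 1 of the 909 probe sets at least 0.8 from Ws-2 in *phyB-77 bri1-5*: the vertical axis is that difference (log2) and the horizontal axis is the larger of the 2 single-mutant differences with its sign (log2), with dashed lines at 0.8 and 0.3. The 36 members lie in the central strip, beside 19 probe sets there that failed only the minimum level. Of the members 4 stand apart above 2, while 720 points of sufficient level lie beyond the limit on the single mutants.

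In every one of the 36 members the 3 *phyB-77 bri1-5* arrays lay outside the range of the other 9 arrays, a pattern that 9.48% of all tested probe sets showed (3.53% above and 5.95% below). The rule itself asks for means far apart, so nothing is read from that count. The gap between the nearest *phyB-77 bri1-5* array and the nearest other array was 0.07 to 2.21 log2 units. That nearest array was of *phyB-77* in 19 members, of *bri1-5* in 13 and of Ws-2 in 4.

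The largest differences belonged to 3 genes that follow each other on chromosome 4 with no annotated gene between them, *At4g27652*, *At4g27654* and *At4g27657*. None of them carries a gene symbol in the annotation used here. *At4g27652* gave log2 values of 8.89, 9.07 and 9.02 in *phyB-77 bri1-5*, against 6.11, 6.18 and 6.33 in *phyB-77*, 6.14, 6.01 and 6.68 in *bri1-5* and 6.19, 6.26 and 6.20 in Ws-2. Its mean difference from Ws-2 was 2.77 ± 0.13 (SE), or 6.84-fold, and *bri1-5* replicate 3 was the highest of the other 9 arrays. *At4g27654* gave 6.70, 6.51 and 6.59 in *phyB-77 bri1-5*, against 3.97, 3.71 and 3.66 in *phyB-77*, 3.91, 3.93 and 4.52 in *bri1-5* and 3.92, 3.93 and 3.99 in Ws-2. The same *bri1-5* array stood above its partners here, and the double mutant exceeded Ws-2 by 2.66 ± 0.13 (SE), or 6.31-fold. *At4g27657* gave 7.76, 7.84 and 7.98 in *phyB-77 bri1-5*, against 5.07, 5.58 and 5.49 in *phyB-77*, 5.17, 4.94 and 5.15 in *bri1-5* and 5.12, 5.28 and 5.50 in Ws-2. In this gene the *bri1-5* arrays were not raised, and the double mutant exceeded Ws-2 by 2.56 ± 0.13 (SE), or 5.91-fold.

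The genes on either side of the run did not share its pattern. *PEL1*, the gene before *At4g27652*, differed from Ws-2 by 0.18 in *phyB-77 bri1-5*, by 0.45 in *phyB-77* and by 0.21 in *bri1-5*. *At4g27660*, the gene after *At4g27657*, differed by -0.03 in *phyB-77 bri1-5*, by 0.24 in *phyB-77* and by less than 0.01 in *bri1-5*. One step further out *At4g27640* was lower, with differences of -0.63 in the double mutant, -0.12 in *phyB-77* and -0.40 in *bri1-5*. No other pair of named members lay close together, and the next closest pair, *At1g32920* and *HUP32*, had 17 annotated genes between its members.

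**Figure D2:**
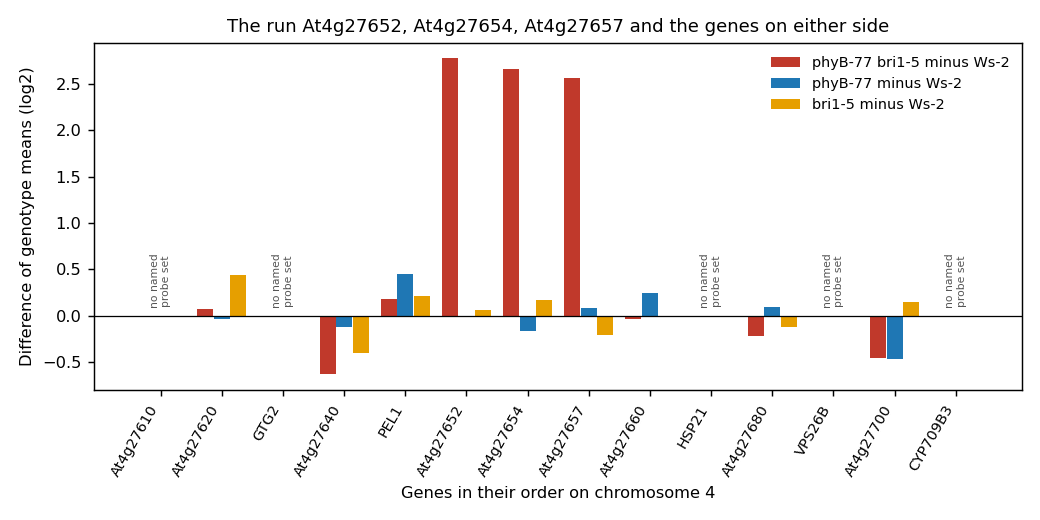
Bars give the difference of genotype means from Ws-2 (log2) for 14 consecutive genes of chromosome 4 in their annotated order, in *phyB-77 bri1-5*, *phyB-77* and *bri1-5*, and genes without a named probe set are marked. The bars of the double mutant reach 2.56 to 2.77 in the 3 members and lie between -0.63 and 0.18 in the measured genes around them.

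The fourth member above 2 log2 units was a probe set assigned to *At2g12050*, annotated as a transcribed pseudogene. Its identifier ends in s_at, which marks probes shared by several transcripts, so the signal may not come from that locus alone. It gave 6.95, 6.91 and 6.95 in *phyB-77 bri1-5*, against 4.28, 4.24 and 4.44 in *phyB-77*, 4.26, 4.78 and 4.56 in *bri1-5* and 4.54, 4.46 and 4.49 in Ws-2. The 3 arrays of the double mutant agreed closely, at 6.94 ± 0.02 against 4.50 ± 0.04 in Ws-2 (SD, n = 3 each), a difference of 2.44 ± 0.11 (SE).

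A C2H2, an ERF and a WRKY transcription factor gene were among the higher members. *ZAT12* encodes a C2H2 zinc finger protein known from responses to oxidative stress, strong light and cold, and it stood next in size. *ZAT12* gave 8.80, 8.94 and 9.02 in *phyB-77 bri1-5*, against 7.52, 7.54 and 7.55 in *phyB-77*, 7.23, 7.18 and 7.37 in *bri1-5* and 7.25, 7.38 and 7.35 in Ws-2. The double mutant was 3.01-fold above Ws-2 (log2 difference 1.59 ± 0.09, SE), and all 3 *phyB-77* arrays lay slightly above all 3 Ws-2 arrays. *ERF11* encodes an ethylene response factor that acts as a repressor. It gave 6.18, 6.15 and 5.72 in *phyB-77 bri1-5*, against 5.57, 5.30 and 5.26 in *phyB-77*, 5.29, 5.29 and 5.43 in *bri1-5* and 5.19, 5.10 and 5.25 in Ws-2. One array of the double mutant, replicate 3, was well below its partners and stood close to the highest *phyB-77* array, so the difference of 0.84 ± 0.12 (SE) rests mainly on replicates 1 and 2. *WRKY70* encodes a regulator placed between salicylic acid and jasmonate responses. It gave 7.29, 7.41 and 7.54 in *phyB-77 bri1-5*, against 6.49, 6.95 and 7.13 in *phyB-77*, 6.77, 6.40 and 6.10 in *bri1-5* and 6.76, 6.73 and 6.31 in Ws-2. The values spread widely within *phyB-77* and *bri1-5*, with SDs of 0.33 and 0.33, and the difference of 0.82 ± 0.17 (SE) had the largest error of the higher members.

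Hormone-related genes among the higher members were *ACS6* and *SAUR72*. *ACS6* encodes an ACC synthase, the enzyme class that makes the precursor of ethylene. It gave 7.35, 7.38 and 7.32 in *phyB-77 bri1-5*, against 6.69, 6.65 and 6.67 in *phyB-77*, 6.32, 6.41 and 6.48 in *bri1-5* and 6.42, 6.36 and 6.38 in Ws-2. The difference of the double mutant was 0.96 ± 0.08 (SE), the *phyB-77* arrays formed a tight group of their own, 0.28 above Ws-2, and *bri1-5* overlapped Ws-2. *SAUR72* belongs to the SAUR family of early auxin-responsive genes. It gave 7.46, 7.46 and 7.56 in *phyB-77 bri1-5*, against 6.94, 6.54 and 6.74 in *phyB-77*, 6.83, 6.90 and 6.76 in *bri1-5* and 6.57, 6.80 and 6.71 in Ws-2, with both single mutants overlapping Ws-2 and a double-mutant difference of 0.81 ± 0.10 (SE).

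*WIP4*, a small wound-induced protein gene, and *HUP32*, known as a hypoxia-responsive gene of unknown function, were the members found in the hypoxia list. *WIP4* gave 6.48, 6.36 and 6.77 in *phyB-77 bri1-5*, against 5.21, 5.42 and 5.55 in *phyB-77*, 5.57, 5.27 and 5.43 in *bri1-5* and 5.65, 5.38 and 5.82 in Ws-2. Here both single mutants averaged below Ws-2, with differences of -0.22 in *phyB-77* and -0.19 in *bri1-5*, while the double mutant was 0.92 ± 0.13 (SE) above it. *HUP32* gave 7.71, 7.76 and 7.93 in *phyB-77 bri1-5*, against 7.34, 6.96 and 7.34 in *phyB-77*, 6.84, 6.93 and 6.83 in *bri1-5* and 7.09, 6.87 and 6.86 in Ws-2. Its *phyB-77* replicates 1 and 3 lay above every Ws-2 array, and the double mutant exceeded Ws-2 by 0.86 ± 0.11 (SE).

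Among the other higher members, 3 exceeded 1 log2 unit. *At1g32920* gave 9.99, 9.80 and 10.06 in *phyB-77 bri1-5*, against 8.75, 8.85 and 8.95 in *phyB-77*, 8.51, 8.74 and 8.70 in *bri1-5* and 8.76, 8.85 and 8.93 in Ws-2, a difference of 1.103. *At5g17350* gave 6.45, 6.49 and 6.33 in *phyB-77 bri1-5*, against 5.41, 5.27 and 5.22 in *phyB-77*, 5.48, 5.30 and 5.68 in *bri1-5* and 5.59, 5.12 and 5.29 in Ws-2, a difference of 1.09. *At5g19120* encodes a protein of the aspartyl protease family, and its difference was 1.07. It also had the highest single-mutant values of these genes, 0.23 in *phyB-77* and 0.24 in *bri1-5*, so that the double mutant exceeded each single mutant by 0.84 and 0.83. *At3g01260*, an aldose epimerase family gene, differed from Ws-2 by 0.90, and its 3 Ws-2 arrays agreed within an SD of 0.01. The differences of *At4g14270*, *At4g31875*, *At1g01725* and *At5g02440* lay between 0.80 and 0.95. In all, 8 of the 19 higher members exceeded 1 and 11 did not, and the median was 0.95.

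**Figure D3:**
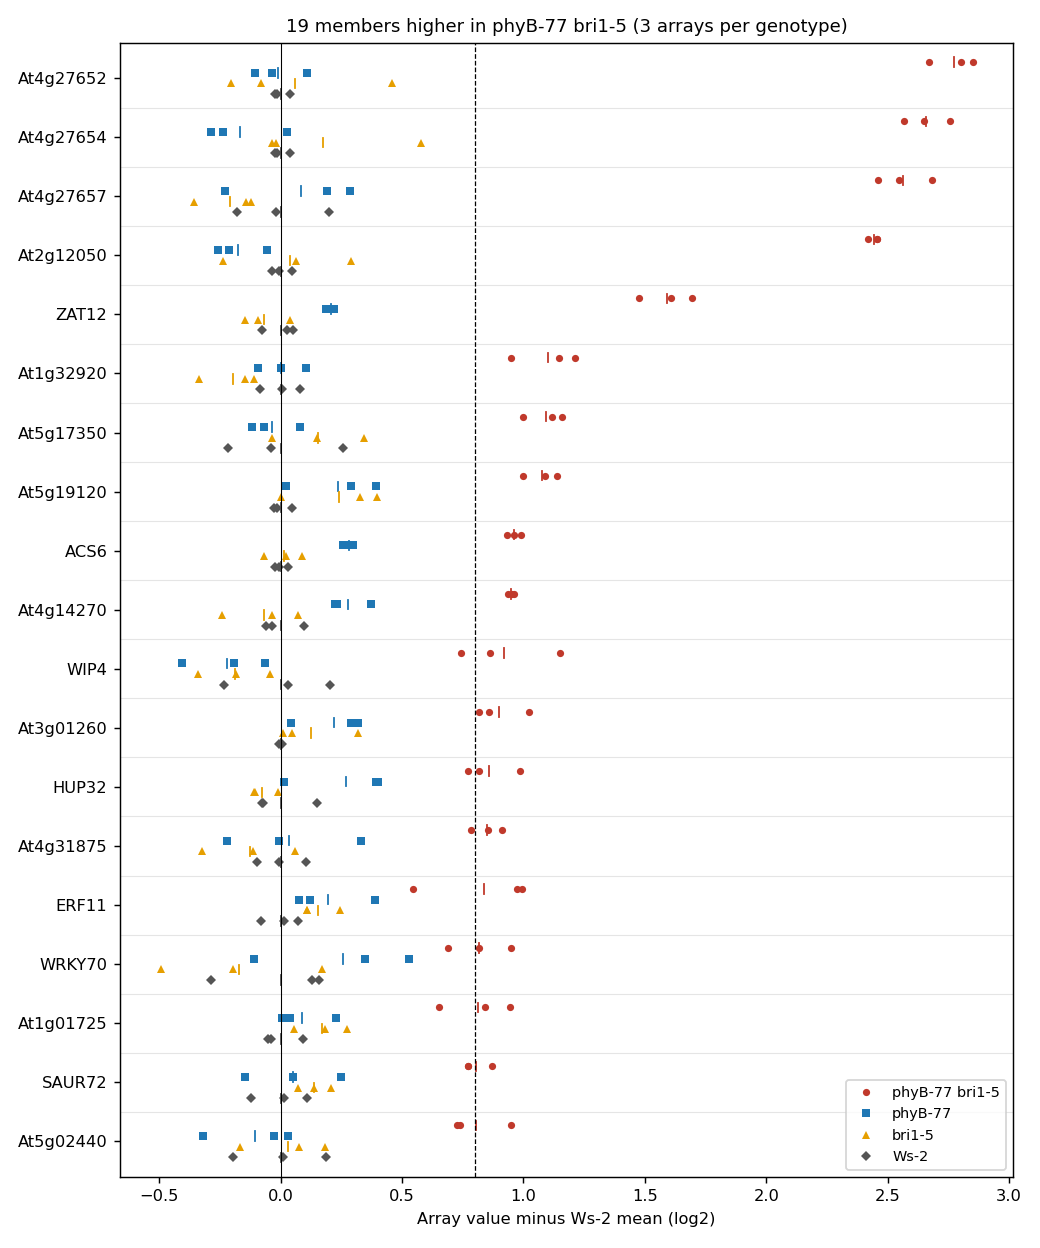
Each row is 1 of the 19 higher members, ordered by the size of the difference, and each symbol is 1 array drawn as its log2 value minus the Ws-2 mean of that probe set, with short bars at genotype means and a dashed line at 0.8. The 3 arrays of *phyB-77 bri1-5* lie to the right of the other 9 in every row, with the widest gap at 2.21 and the narrowest at 0.16.

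The 17 lower members reached no difference as large as those of the run on chromosome 4. Their differences from Ws-2 ran from -1.43 to -0.83 with a median of -0.98, 8 of them beyond 1 log2 unit. Only 8 were assigned to a gene in the sources used here. *At3g50400*, a GDSL-type lipase gene, gave 4.87, 4.82 and 4.80 in *phyB-77 bri1-5*, against 6.35, 5.65 and 5.91 in *phyB-77*, 6.56, 6.37 and 5.75 in *bri1-5* and 6.33, 6.26 and 6.18 in Ws-2. The double mutant was 2.7-fold below Ws-2 (log2 difference -1.43 ± 0.17, SE). The single mutants spread widely, with SDs of 0.35 in *phyB-77* and 0.42 in *bri1-5*. Their mean differences from Ws-2 were -0.29 in *phyB-77*, close to the limit of 0.3, and -0.03 in *bri1-5*. *At3g50400* was no longer a member without *phyB-77* replicate 1 or without Ws-2 replicate 3. *At2g41380*, which encodes a methyltransferase-like protein, gave 5.39, 5.91 and 5.74 in *phyB-77 bri1-5*, against 7.21, 7.02 and 7.16 in *phyB-77*, 7.00, 6.94 and 7.10 in *bri1-5* and 7.29, 6.92 and 7.01 in Ws-2. The arrays of the other 3 genotypes overlapped, and the double mutant was 2.63-fold below Ws-2 (-1.40 ± 0.12, SE). *At3g57020*, a gene of the strictosidine synthase-like family, gave 7.51, 7.56 and 7.64 in *phyB-77 bri1-5*, against 8.72, 8.88 and 8.80 in *phyB-77*, 8.71, 8.64 and 8.63 in *bri1-5* and 9.03, 8.95 and 8.76 in Ws-2. Its difference was -1.34 ± 0.09 (SE), and all 3 *bri1-5* arrays were also below all 3 Ws-2 arrays.

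*At2g43590*, from the chitinase family, gave 7.36, 7.10 and 7.13 in *phyB-77 bri1-5*, against 8.24, 7.88 and 7.94 in *phyB-77*, 8.06, 8.17 and 7.87 in *bri1-5* and 8.15, 8.23 and 8.09 in Ws-2, and *NPF4.3*, from the family of nitrate and peptide transporters, gave 5.58, 5.45 and 5.49 in *phyB-77 bri1-5*, against 6.34, 5.99 and 6.19 in *phyB-77*, 6.13, 6.22 and 6.15 in *bri1-5* and 6.40, 6.18 and 6.58 in Ws-2. Their differences were -0.97 ± 0.11 and -0.88 ± 0.11 (SE), and in both genes the means of *phyB-77* and *bri1-5* were also below Ws-2. *At1g54540*, of the LEA and NDR1-like protein family, gave 5.17, 5.72 and 5.03 in *phyB-77 bri1-5*, against 6.24, 5.98 and 5.93 in *phyB-77*, 6.19, 5.79 and 6.10 in *bri1-5* and 6.24, 6.24 and 6.36 in Ws-2. In this gene replicate 2 of the double mutant lay only 0.07 below the nearest *bri1-5* array, the narrowest gap of all members. *At1g17360* and *At1g79510* differed from Ws-2 by -0.86 and -0.83, and *bri1-5* was 0.25 above Ws-2 in *At1g17360*.

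The other 9 lower members are known here only by their probe set. Of these 250239_at gave 6.47, 6.45 and 6.37 in *phyB-77 bri1-5*, against 7.41, 7.62 and 7.40 in *phyB-77*, 7.47, 7.41 and 7.58 in *bri1-5* and 7.79, 7.82 and 7.71 in Ws-2. Every *phyB-77* and *bri1-5* array lay below every Ws-2 array, by means of -0.30 and -0.29, close to the limit of 0.3, and the double mutant was a further step lower at -1.34 ± 0.09 (SE). For 253039_at the values were 7.48, 7.83 and 7.81 in *phyB-77 bri1-5*, against 9.24, 9.07 and 9.26 in *phyB-77*, 8.58, 8.66 and 8.77 in *bri1-5* and 9.12, 8.93 and 8.83 in Ws-2. The single mutants went opposite ways, 0.23 in *phyB-77* and -0.29 in *bri1-5*, and the double mutant was -1.26 ± 0.11 (SE) from Ws-2. The remaining 7 were 267516_at (-1.28), 264102_at (-1.17), 252911_at (-1.04), 258184_at (-0.88), 267517_at (-0.87), 266053_at (-0.84) and 257642_at (-0.84).

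**Figure D4:**
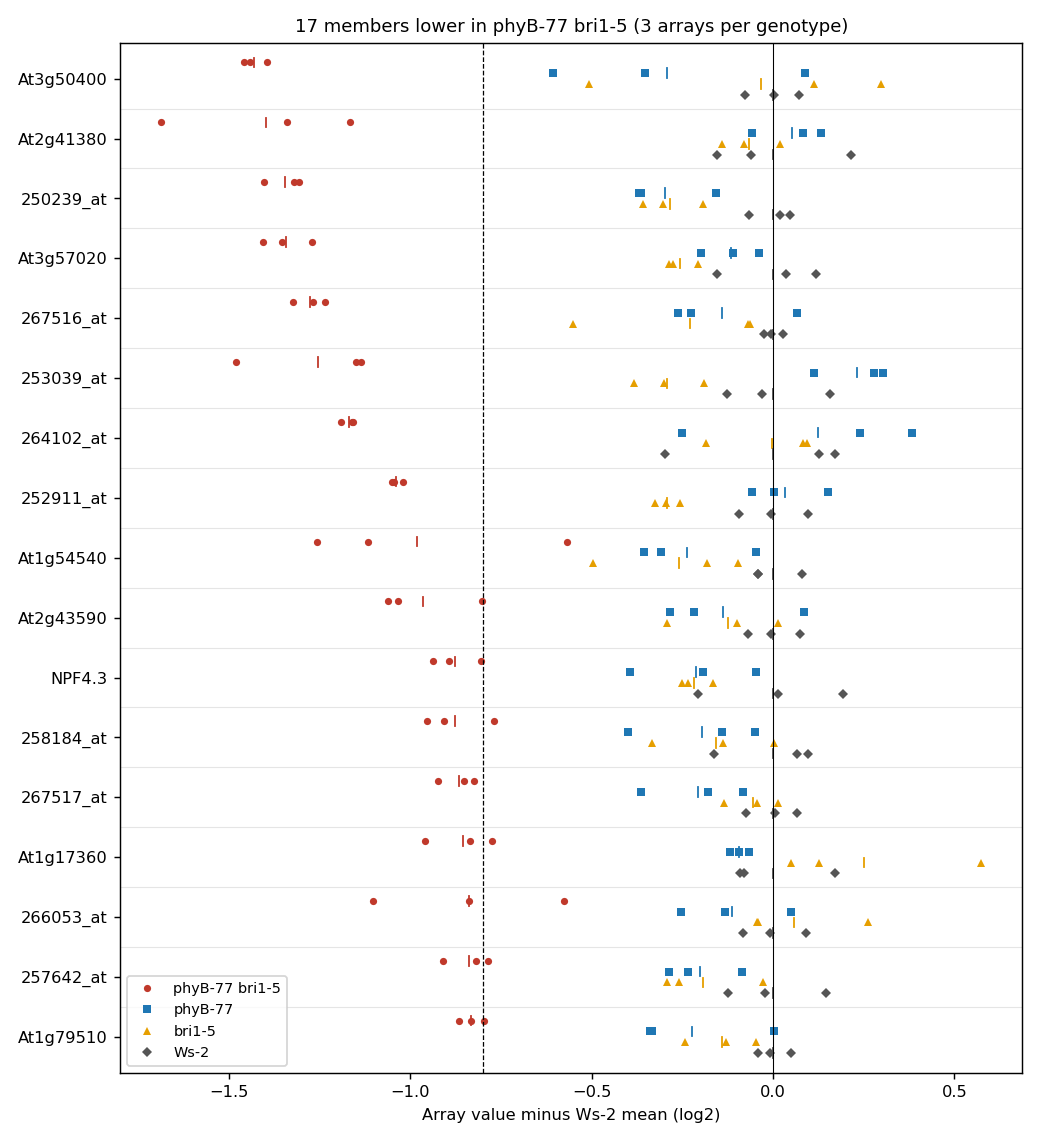
Each row is 1 of the 17 lower members, ordered by the size of the difference, and each symbol is 1 array drawn as its log2 value minus the Ws-2 mean of that probe set, with short bars at genotype means and a dashed line at -0.8. The 3 arrays of *phyB-77 bri1-5* lie to the left of the other 9 in every row, with the narrowest gap, 0.07, in *At1g54540*.

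Every difference is taken from the same Ws-2 mean, so the choice of members also bears on the sign of their single-mutant differences, and nothing is read from the counts that follow. Among the 17 lower members the *phyB-77* mean was below Ws-2 in 13 and the *bri1-5* mean in 15, with median differences of -0.14 and -0.16. Among the 19 higher members the *phyB-77* mean was above Ws-2 in 13 and the *bri1-5* mean in 11, with medians of 0.08 and 0.03. The double mutant departed from the sum of both single-mutant differences by 0.49 to 2.73 in the higher members and by -1.38 to -0.44 in the lower ones. The SE of that departure was 0.12 to 0.24, so the smaller departures are imprecise, such as 0.49 ± 0.17 in *ERF11* and -0.49 ± 0.21 in *At1g54540*. The SE of the double-mutant difference from Ws-2 was 0.08 to 0.17 over all members. Across the arrays of the double mutant the median difference of the higher members was 0.96, 0.95 and 1.00 for replicates 1, 2 and 3, and that of the lower members was -1.10, -1.05 and -1.05.

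The members' levels stood near the floor in several cases. Of the higher members, 8 had a Ws-2 mean under 6 and so met the minimum level only through the double mutant, and 6 of the lower members had a double-mutant mean under 6. Just inside the limit of 0.8 were *At5g02440* (0.80) and *SAUR72* (0.81), and just outside it were 255764_at (-0.79) and 248737_at (-0.79). Another 19 probe sets met all 3 limits on the differences and failed only the minimum level, 10 of them higher and 9 lower. The lower ones included At1g58025 (-1.16), the only one of the 9 assigned to a gene. Chosen after their values were seen, the higher ones included *At3g63360* (1.36), *ORA47* (1.15), an AP2/ERF regulator known from jasmonate responses, *At3g10930* (1.09), *CLE2* (0.94), a gene for a small signalling peptide, and *CML23* (0.91), a calmodulin-like calcium sensor gene.

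The 27 members assigned to a gene lay on all 5 chromosomes. Chromosome 4 held 7, all of them higher, chromosome 1 held 4 higher and 4 lower, chromosome 3 held 3 higher and 2 lower, chromosome 2 held 1 higher and 2 lower, and chromosome 5 held 4, all higher. Of all probe sets assigned to a gene 14.4% lay on chromosome 4 and 22.5% on chromosome 5. All 9 members without an assigned gene were lower, so the split by chromosome describes the 27 only. No member gene had another probe set under the same name.

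Genes related to the members by function were examined through 14 lists, of which 80 of 198 genes could be matched to a probe set. The changes below were tested with limma over all 22746 probe sets at a Benjamini-Hochberg adjusted p under 0.01, a threshold that 14.6% of all probe sets passed in *phyB-77 bri1-5* against Ws-2 (6.55% higher, 8.01% lower). Many names come from tables of genes that the study selected on these same arrays, so a count within a list is not independent evidence of its direction.

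The fast stress and touch regulators were covered by 4 lists: AP2/ERF, C2H2 zinc finger, WRKY and MYB, and touch and calmodulin-like genes. Outside the rule they had 31 measured genes, of which 18 rose and 1 fell in *phyB-77 bri1-5*, with a median difference of 0.73 against -0.02 over all probe sets. In *phyB-77* 10 of them rose and 2 fell, where 15.3% of all probe sets were called (8.56% higher, 6.77% lower). In *bri1-5* 5 of them rose and 3 fell, where 19.1% of all probe sets were called (10.5% higher, 8.61% lower). Among the 16 whose name came from the platform annotation rather than the study's tables, 7 rose and 1 fell in the double mutant, with a median of 0.25. The single mutants and the double mutant share their Ws-2 arrays. *ORA47* and *CML23*, which met the limits on the differences and failed only the minimum level, are counted in these lists.

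Of 7 AP2/ERF genes outside the rule, 6 rose in the double mutant, with a median of 1.52. *CBF1* and *CBF2*, the transcription factors that start the cold response, rose by 1.99 and 2.605 (limma adjusted p = 9.96e-11 and 6.47e-12). *CBF1* averaged 6.54 ± 0.05 in *phyB-77 bri1-5* and 4.54 ± 0.13 in Ws-2 (SD, n = 3 each), and it fell in *phyB-77*, with a difference of -0.42 (limma adjusted p = 0.00856). *CBF2* averaged 7.92 ± 0.10 in *phyB-77 bri1-5* and 5.32 ± 0.19 in Ws-2 (SD, n = 3 each), and unlike the members it also rose in *bri1-5*, by 0.93 (limma adjusted p = 1.03e-05). *ERF104* and *ERF105*, ethylene response factors of stress responses, rose by 2.06 and 1.52 in the double mutant (limma adjusted p = 1.15e-10 and 6.14e-09). *ERF104* missed the threshold in *phyB-77* (0.35) and in *bri1-5* (0.39), with sizes just beyond the 0.3 limit of the rule. *ERF105* rose in *phyB-77* by 0.44 (limma adjusted p = 0.0068) and missed the threshold in *bri1-5* (0.31).

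The relatives of *ZAT12* were not alike. *ZAT10*, a zinc finger repressor of stress responses, averaged 7.83 ± 0.07 in *phyB-77 bri1-5* and 5.80 ± 0.25 in Ws-2 (SD, n = 3 each) and rose by 2.03 in the double mutant and by 0.88 in *phyB-77* (limma adjusted p = 2.45e-10 and 1.90e-05). The other 3 measured C2H2 genes did not pass the test in the double mutant, with differences of -0.24 for *ZAT6*, -0.24 for *ZAT5* and 0.03 for *ZAT18*. *ZAT6* passed it in both single mutants, at 0.59 in *phyB-77* and -1.06 in *bri1-5* (limma adjusted p = 0.00208 and 5.49e-06). The level of *ZAT18* was very low, with means of 3.18 in the double mutant and 3.15 in Ws-2, so little can be read from its difference.

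Of 10 WRKY and MYB genes outside the rule, 5 rose in the double mutant, with a median of 0.61. *WRKY40*, a regulator of pathogen and abscisic acid responses, rose by 1.31 in the double mutant and by 0.71 in *bri1-5* (limma adjusted p = 2.05e-09 and 7.67e-06). The related factors *MYB77*, *MYB73* and *MYB44* rose by 1.52, 0.96 and 0.78 in the double mutant (limma adjusted p = 8.22e-09, 1.22e-06 and 3.22e-05). *MYB73* also rose in *phyB-77* by 0.40 and in *bri1-5* by 0.51 (limma adjusted p = 0.00739 and 0.00102). *MYB77* also rose in *bri1-5* by 0.65 (limma adjusted p = 0.000238) and differed by 0.05 in *phyB-77*. *MYB44* missed the threshold in both single mutants, with differences of 0.26 in *phyB-77* and 0.21 in *bri1-5*.

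Of 10 touch and calmodulin-like genes, 6 rose and 1 fell, with a median of 0.51. *TCH4*, a cell wall xyloglucan enzyme gene induced by touch and by brassinosteroids, rose by 1.297 in *phyB-77 bri1-5*, by 1.17 in *phyB-77* and by 0.51 in *bri1-5*. *TCH3*, a touch-induced calmodulin-like gene, rose by 0.66 in the double mutant and by 0.90 in *phyB-77* and fell by 1.00 in *bri1-5*. *CML16* and *CML23* rose by 0.78 and 0.91 in the double mutant, with differences between -0.15 and 0.09 in the single mutants that did not pass the test. The gene that fell was *CML42* at -0.39, and it lost that call without any 1 of 5 arrays (limma adjusted p up to 0.0399). *CML37*, at 0.35, lost its call without any 1 of 4 arrays (limma adjusted p up to 0.0287).

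**Figure D5:**
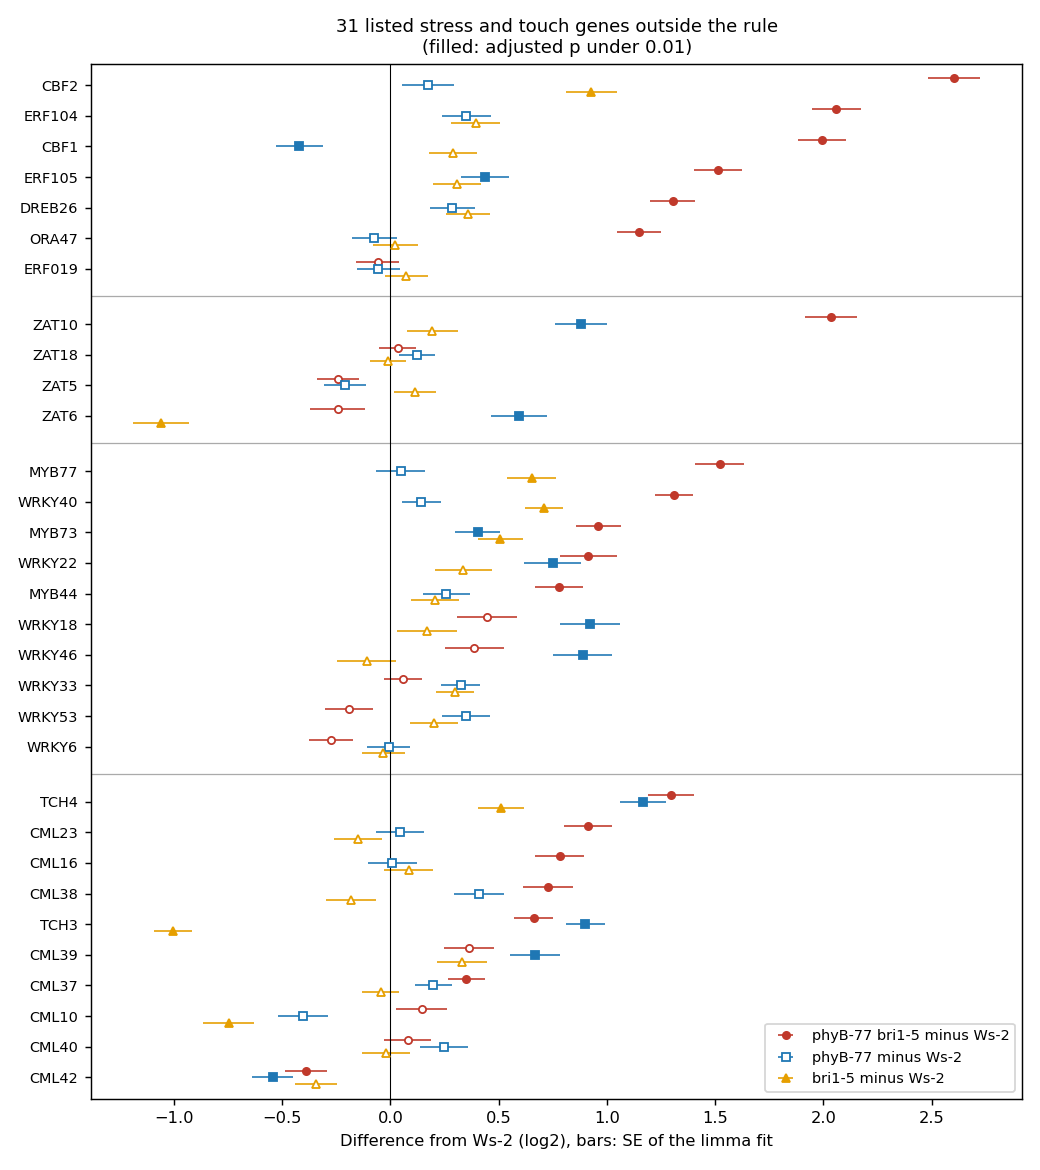
Points give differences from Ws-2 (log2, bars: SE of the limma fit) for the 31 stress and touch genes outside the rule, in 4 blocks from top to bottom: AP2/ERF, C2H2 zinc finger, WRKY and MYB, and touch and calmodulin-like genes, with filled symbols at an adjusted p under 0.01. In *phyB-77 bri1-5* 18 genes are filled to the right of 0 and 1 to the left, and most of the largest values belong to genes whose single-mutant values stay below 1.

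Against Ws-2, the targets of the CBF factors did not rise with them. Of 7 cold-regulated genes none rose by limma in *phyB-77 bri1-5* (1 at an unadjusted p under 0.05) and 2 fell, with a median of -0.22, and the 2 were *COR15A* and *COR15B*, chloroplast proteins that protect membranes in the cold, at -0.87 and -0.84 (limma adjusted p = 1.21e-06 and 4.54e-06). In *phyB-77* 4 of the 7 rose and 3 fell, *COR15A* (-0.525), *COR15B* (-2.21) and *COR413IM1* (-1.04). In *bri1-5* 2 rose and 2 fell. Compared with *phyB-77*, the double mutant was thus higher in *COR15B* (mean 7.23 against 5.86) and *COR413IM1* (7.86 against 7.14). Means of the other cold-regulated genes were lower in the double mutant than in *phyB-77*.

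The sulphur and sugar lists had most of their measured genes higher in the double mutant. Of 6 measured genes that respond to sulphur shortage 4 rose, with a median of 0.96. These were *LSU1* by 1.15, *SDI1* by 1.40, *SDI2* by 1.36 and *BGLU28* by 0.78. In *phyB-77* 2 of the 6 rose, and in *bri1-5* 1 rose and 2 fell. Of 10 sugar starvation genes 8 rose, with a median of 0.85, led by *DIN2* (2.36) and *SEN5* (1.42), and the call of *TPS9* (0.35) was lost without any 1 of 7 arrays (limma adjusted p up to 0.0429). In *phyB-77* 6 of the 10 rose, with a median of 0.60, and in *bri1-5* 4 rose and 2 fell, with a median of 0.35. *DIN2* rose as much in *phyB-77* (2.47), whereas *SEN5* differed there by -0.04.

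The jasmonate and aliphatic glucosinolate lists had genes that fell and, by limma, none that rose (1 and 0 at an unadjusted p under 0.05). Of 5 measured jasmonate and wound genes 3 fell. *VSP1*, a storage protein gene, fell by 2.43, and the jasmonate synthesis genes *LOX2* and *AOS* fell by 1.27 and by 0.71. *VSP1* also fell in *phyB-77* (-1.13) and in *bri1-5* (-2.11). *LOX2* fell in *phyB-77* (-1.67) and rose in *bri1-5* (0.74), and *AOS* fell in *bri1-5* (-0.54) and did not pass the test in *phyB-77* (-0.25). All 4 measured glucosinolate genes fell, and all 4 fell in *phyB-77* too. The medians were -1.72 for the double mutant and -1.76 for *phyB-77*. In *bri1-5* 3 of the 4 fell and *MAM3* rose (1.37), with a median of -0.65. The remaining lists had 1 to 4 measured genes each outside the rule, with 1 of 3 hypoxia genes, 2 of 4 abscisic acid genes and 1 of 2 CLE genes higher, and 2 abscisic acid genes and 1 of 2 nitrate and iron uptake genes lower. The only measured salicylic acid gene, *SAG101*, rose by 0.58, a call lost without any 1 of 6 arrays (limma adjusted p up to 0.0562).

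Markers of tissues were measured beside the members. All 6 seed genes (storage proteins, oleosins and seed aquaporins) rose in the double mutant, with a median of 3.34, and also in *phyB-77*, with a median of 3.43. In *bri1-5* 2 of the 6 fell, *SESA3* (-1.03) and *TIP3;2* (-1.22), and by limma none rose (at an unadjusted p under 0.05, 1 was higher and 3 lower). Per array the mean log2 level of these 6 genes was 9.84 to 9.94 in *phyB-77 bri1-5*, 10.2 to 10.3 in *phyB-77*, 6.36 to 6.60 in *bri1-5* and 6.74 to 6.92 in Ws-2. Of 5 root genes 3 fell in the double mutant, the call of *RHD2* (-0.44) being lost without any 1 of 3 arrays (limma adjusted p up to 0.0218). The other 2, *PYK10* (-0.08) and *PRP3* (0.34), did not pass the test, and 1 gene was higher at an unadjusted p under 0.05. In *phyB-77* 4 of the 5 root genes fell, with a median of -0.74. In *bri1-5* 3 of them rose and 1 fell, with a median of 0.83. Of 6 green tissue genes 2 were measured, *LHCB4.1* and *CHLM*. In the double mutant their differences of -0.06 and -0.31 did not pass the test. That of *CHLM* (limma adjusted p = 0.0118) passed after quantile normalisation (0.00586) and with a variance trend (0.00363). Both genes fell in *phyB-77*, by 0.53 and 0.48 (limma adjusted p = 0.000399 and 0.000379). Neither passed the test in *bri1-5* (-0.07 and 0.13). The part of seed or root RNA in the members' values was not tested. Array medians were 5.87 to 5.99, arrays of a genotype correlated at 0.993 to 0.998, arrays of different genotypes at 0.969 to 0.988, and no 2 arrays were identical. PHYB and BRI1 themselves were not analysed here, since no probe set carried their names.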

How the data were processed

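Whole-seedling RNA of 4 genotypes was hybridised to 12 ATH1 arrays, 3 per genotype. The authors deposited RMA values on the log2 scale, in which background had been corrected, arrays normalised and probes summarised. The software version is not given in the sources used here. Of 22810 probe sets, 64 controls were left out. Genotype means gave the rule's differences. limma 3.58.1 in R 4.3.3 fitted 1 coefficient per genotype to all 12 arrays for each mutant against Ws-2 and for the interaction, with two-sided moderated tests, Benjamini-Hochberg adjustment over 22746 probe sets and a threshold of 0.01. The fit was tested on simulated data. Tables were handled in Python 3.11.15 with pandas 2.3.3.

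Names came from the platform annotation updated through RefSeq identifiers (13513 probe sets with 1 gene, 503 with several) and, for 1299 more, from locus columns of the study's tables, whose rows were selected on these samples. For 7431 no name was used. The tables' fold changes and p-values were not used. Members, gene lists and tests were chosen with earlier results of these data known. Named members were the 10 largest per direction, members in a list, neighbours with at most 5 genes between, and the 2 nearest either side of the 0.8 limit. Named list genes were up to 4 per list with the smallest adjusted p in *phyB-77 bri1-5*. Alternatives were centring, quantile normalisation, leaving out the 40% dimmest probe sets, an adjusted p of 0.05, a replicate block, a variance trend, other limits of the rule and leaving out each array. Promoter sequences were not analysed here.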

Additional observations from a re-analysis of the deposited data

Results flagged for a closer look

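For 48 named genes outside the rule, the interaction, that is the difference of *phyB-77 bri1-5* from *bri1-5* minus the difference of *phyB-77* from Ws-2, was tested with limma. It passed an adjusted p of 0.01 in 29, above 0 in 23 and below 0 in 6. Of all probe sets 13.8% passed, but the 48 were named for small adjusted p-values of the double-mutant difference, which enters the interaction, so nothing is read from their share or their split.

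Among AP2/ERF genes the interaction was 2.13 for *CBF1*, 1.50 for *CBF2*, 1.32 for *ERF104* and 0.77 for *ERF105*. It was 0.96 for *ZAT10* and 0.82 for *MYB77*. Touch and calmodulin-like genes gave 0.77 for *TCH3*, 0.69 for *CML16* and 1.02 for *CML23*. Among cold-regulated genes it was 2.20 for *COR15B*, -1.73 for *LTI30* and 1.87 for *COR413IM1*. The sulphur genes *LSU1*, *SDI1*, *SDI2* and *BGLU28* gave 0.83, 0.99, 0.93 and 1.16. Values for *ADH1*, *DIN2*, *SEN5* and *VSP1* were -0.53, 0.81, 1.00 and 0.82, and those for *RD29B*, *CLE2* and *CLE6* were -1.34, 0.72 and 1.24. The iron uptake genes *IRT1* and *bHLH39* gave -1.14 and -1.42. Glucosinolate genes gave -1.34 for *MAM3*, 0.81 for *BCAT4*, 0.64 for *MYB28* and 1.69 for *FMOGS-OX1*. *CML23* and *CLE2* meet the rule's limits on the differences, so their interactions follow from that choice.

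The interaction of *CML16* lost its call without any 1 of 4 arrays, that of *ADH1* without any 1 of 8, that of *DIN2* without any 1 of 6 and that of *VSP1* without any 1 of 4, with limma adjusted p-values of at most 0.0163, 0.0201, 0.0159 and 0.0134. That of *ADH1* was also lost after centring (limma adjusted p = 0.0158) and after quantile normalisation (0.0174). Over the 31 stress and touch genes the interaction was higher in 12 and lower in 3, and after centring the arrays in 14 and 1.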

How the results depend on the processing

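The 36 members became 16 with a double-mutant limit of 1.0, 15 with a single-mutant limit of 0.2, 24 with a minimum level of 7 and 55 with no minimum. Centring gave 37 members, 32 of them shared with the 36, and quantile normalisation 37, with 33 shared. Leaving out 1 array gave 32 to 40 members, with 27 shared without Ws-2 replicate 3 and 28 without Ws-2 replicate 1. In all 12 such sets 13 members stayed, 9 higher and 4 lower, and *WRKY70* stayed in 6, the fewest. No member difference changed sign. Members were chosen for differences of at least 0.8 on these same arrays, so nothing is read from that. The most any member difference moved was 0.21, without *phyB-77 bri1-5* replicate 2. At an adjusted p of 0.05 the calls against Ws-2 were 5157 in place of 3311 in *phyB-77 bri1-5* and 5345 in place of 3487 in *phyB-77*, and those for the interaction 5140 in place of 3128. Leaving out 1 array gave 2320 to 3718 calls in *phyB-77 bri1-5*, 2560 to 3869 in *phyB-77*, 3320 to 4622 in *bri1-5* and 2305 to 3314 for the interaction. Centring moved the median interaction of all probe sets to 0.05 from -0.05, and its calls to 1659 higher and 1474 lower in place of 1097 and 2031 (quantile normalisation: 1439 and 1610). For *phyB-77* centring gave 1582 higher and 1983 lower in place of 1946 and 1541. Without the 40% dimmest probe sets 3 touch and calmodulin-like genes rose in place of 6, since fewer genes were tested. The list genes and tissue markers outside the rule had 57 double-mutant calls, with *IRT1* counted both as a list gene and as a marker. Of these calls 6 were lost without some single array: *CML37*, *CML42*, *TPS9*, *SAG101*, *RHD2* and *MAM3* (without *phyB-77 bri1-5* replicate 1 or Ws-2 replicate 1, limma adjusted p up to 0.026). The call of *TPS9* was also lost under the replicate block (limma adjusted p = 0.0157). Same-numbered arrays deviated together by r of -0.19 to 0.08 (18 pairs) and others by -0.17 to 0.18 (36 pairs). The deviations thus showed no sign of pairing by number, though they cannot tell whether same-numbered samples were handled together. A replicate block gave 3213, 3369, 4248 and 2981 calls for the double mutant, *phyB-77*, *bri1-5* and the interaction.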
